A study of Mus musculus with 2 samples.

Results

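Imprinted genes, which are transcribed mainly from the copy inherited from 1 parent, were examined for binding of lysine-specific demethylase 1 (LSD1) in mouse brown adipocytes, the heat-producing fat cells. The genes were chosen by name from a list of 42 entries spanning the large mouse imprinted domains and a set of single imprinted genes. In the GENCODE M21 annotation 41 entries matched a gene of their own, and Nesp, an upstream transcript of the Gnas locus, was found as a synonym of Gnas. The 41 genes, 35 protein-coding and 6 long noncoding, stand against 55413 annotated genes on chromosomes 1 to 19, X and Y. A gene was called promoter-bound when a peak came within 1 kb of one of its annotated starts, and had a nearby peak when one lay between 10 kb upstream and its end.

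The study holds 2 libraries, an LSD1 immunoprecipitate made with the submitters' own antibody and an input DNA library without antibody. Both came from primary brown adipocytes of C57BL/6 N mice with the genotype given as control, passaged 2 to 3 times, induced with insulin, dexamethasone, rosiglitazone, indomethacin, T3 and isobutylmethylxanthine, and fixed for 5 min after 10 days. The measurement is 1 list of 59175 LSD1 peaks in mm10 coordinates, with 1 score per peak that the authors deposited. The sources used here do not state its scale, and its median was 111. There are no replicates, so no test was made, the depth is unknown, and Wilson 95% intervals cover counting error only. Peaks carry no information on the parental allele, on DNA methylation or on transcription. Of 8 brown adipocyte markers 6 had a promoter peak, against 57.2% of protein-coding genes, and Ucp1 and Dio2 had none. A promoter peak of at least the median score was found for 2 of the 8, against 48.4% of protein-coding genes. Occupancy of a gene neither shows its expression nor identifies the cells.

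Imprints are set in the germ line as DNA methylation of control regions on 1 parental allele, called germline differentially methylated regions (DMRs), and many of these overlap the start of a gene or noncoding RNA. The zinc finger protein ZFP57 binds the letters TGCCGC when methylated and, with TRIM28, keeps the mark through early development. LSD1 removes methyl groups from histone lysines within CoREST corepressor complexes. Its relative KDM1B is known for its part in establishing imprints in mouse oocytes. Several imprinted genes, such as Plagl1, Dlk1, Peg3 and Gnas, are known for effects on growth, fat storage or thermogenesis in mice.

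The sequences of 6 LSD1 peaks show what occupied DNA looks like at these loci. The first 3 are the highest-scoring peak of Gnas, of the shared Peg10 and Sgce promoter and of Airn, the next are those of Nap1l5 and Snrpn, shown for their many TGCCGC letters, and the last is the peak within Peg3, shown for a repeated YY1 core. Each is the 300 bp around the peak midpoint on the plus strand of GRCm38, and capitals mark TGCCGC or its reverse complement in the first 5 and AAGATGGC in the last. The Nap1l5, Snrpn and Peg3 sequences were picked after their letters had been counted.
Gnas, upstream of the extra-large start, chr2:174297013-174297312: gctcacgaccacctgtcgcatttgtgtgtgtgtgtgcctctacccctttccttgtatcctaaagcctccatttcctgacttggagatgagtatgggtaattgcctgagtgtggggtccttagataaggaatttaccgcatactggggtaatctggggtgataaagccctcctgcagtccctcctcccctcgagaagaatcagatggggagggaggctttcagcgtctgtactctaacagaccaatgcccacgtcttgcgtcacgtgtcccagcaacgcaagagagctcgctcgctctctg
Peg10 and Sgce, chr6:4748009-4748308: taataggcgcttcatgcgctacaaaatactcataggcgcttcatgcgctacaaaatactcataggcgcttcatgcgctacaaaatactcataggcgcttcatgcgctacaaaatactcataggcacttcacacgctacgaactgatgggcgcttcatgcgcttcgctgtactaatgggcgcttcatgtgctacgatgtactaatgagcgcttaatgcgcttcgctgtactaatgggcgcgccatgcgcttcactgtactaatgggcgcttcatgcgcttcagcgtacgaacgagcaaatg
Airn, chr17:12741251-12741550: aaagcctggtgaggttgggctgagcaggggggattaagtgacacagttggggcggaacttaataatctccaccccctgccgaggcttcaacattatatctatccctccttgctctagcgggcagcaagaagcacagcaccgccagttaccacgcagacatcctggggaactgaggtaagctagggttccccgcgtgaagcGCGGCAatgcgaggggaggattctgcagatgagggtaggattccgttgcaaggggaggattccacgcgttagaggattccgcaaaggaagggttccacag
Nap1l5, chr6:58906852-58907151: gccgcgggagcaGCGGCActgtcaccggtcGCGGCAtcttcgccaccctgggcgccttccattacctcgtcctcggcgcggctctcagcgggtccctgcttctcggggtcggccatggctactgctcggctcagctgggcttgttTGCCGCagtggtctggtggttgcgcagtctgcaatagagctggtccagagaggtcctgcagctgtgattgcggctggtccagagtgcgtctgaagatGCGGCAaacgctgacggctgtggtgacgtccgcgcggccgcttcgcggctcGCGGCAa
Snrpn, chr7:60004678-60004977: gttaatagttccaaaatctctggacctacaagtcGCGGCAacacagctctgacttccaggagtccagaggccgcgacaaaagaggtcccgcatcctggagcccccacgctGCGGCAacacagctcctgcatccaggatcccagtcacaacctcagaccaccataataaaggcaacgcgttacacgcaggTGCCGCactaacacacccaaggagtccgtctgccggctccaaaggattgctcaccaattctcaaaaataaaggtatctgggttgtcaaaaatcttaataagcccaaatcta
Peg3, chr7:6728363-6728662: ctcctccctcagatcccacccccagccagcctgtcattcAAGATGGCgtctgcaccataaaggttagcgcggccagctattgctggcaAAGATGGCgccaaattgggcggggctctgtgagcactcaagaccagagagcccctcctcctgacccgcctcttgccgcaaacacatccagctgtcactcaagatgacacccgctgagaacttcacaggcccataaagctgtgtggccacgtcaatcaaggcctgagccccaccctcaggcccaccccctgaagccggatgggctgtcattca

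LSD1 peaks lay at the starts of most imprinted genes, with modest scores. Of the 41 genes, 28 were promoter-bound, 68.3% (53.0 to 80.4%), against 30.6% of all annotated genes. Among protein-coding genes the count was 25 of 35, or 71.4% (54.9 to 83.7%), against 57.2%. Of the 6 noncoding RNAs 3 were promoter-bound, Airn, Meg3 and Mirg, against 25.1% of 9603 long noncoding genes. A nearby peak was found for 35 of the 41, 85.4% (71.6 to 93.1%), against 46.0% of all genes, for 30 of 35 protein-coding ones against 69.9%, and for 5 of 6 noncoding ones against 50.6%. In total 97 separate peaks belonged to the imprinted genes, and 40 of them were promoter peaks.

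Over all genes a promoter peak was more common the higher the CpG content of the promoter, and the imprinted promoters were CpG-rich. The CpG ratio is the observed over expected number of CG letters in the 1 kb around a start, taken at the start where it is highest. Its median was 0.749 over the imprinted genes, against 0.627 over all protein-coding genes. Averaged over genes of the same type in the same of 10 equal CpG classes, 70.7% were promoter-bound, so the 68.3% of imprinted genes is near this background. All 9 imprinted genes in class 9, such as Cdkn1c, Gnas and Impact, had a promoter peak, where 90.7% of protein-coding genes had one. Genes with a CpG ratio above 0.7 and no promoter peak at any start were Mcts2, Phlda2, Rasgrf1, Kcnq1 and Mkrn3. Bound genes could also have CpG-rich starts without a peak. Grb10 and Igf2, classed by such starts, were bound only at starts with ratios of 0.129 and 0.0606. Dcn, in the CpG-poor class 3 where 17.8% of protein-coding genes were bound, had a peak. Imprinted genes had more annotated starts, a median of 5 against 3 for protein-coding genes, and the number of starts was not taken into account.

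**Figure D1:**
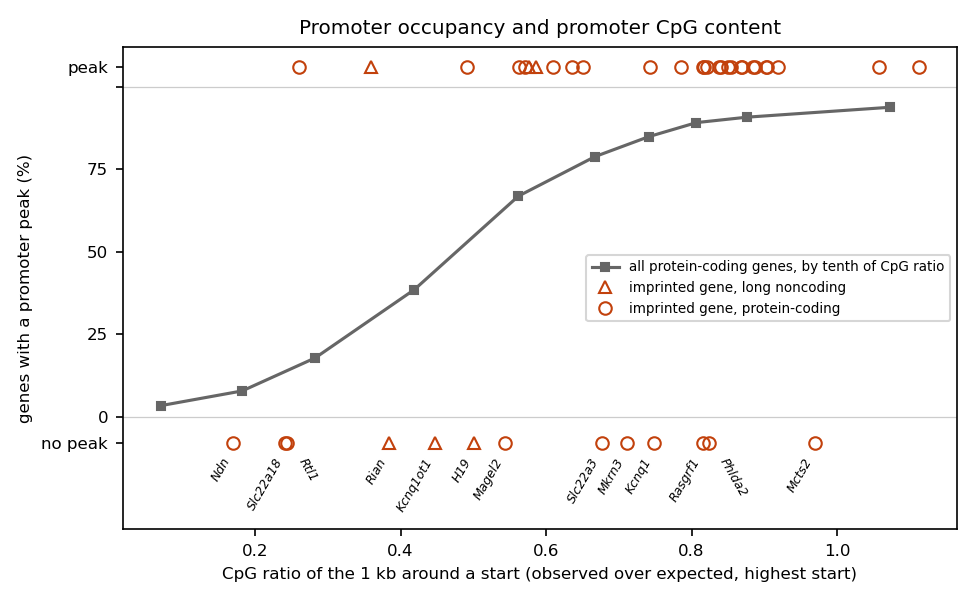
Share of protein-coding genes with an LSD1 promoter peak in 10 classes of promoter CpG ratio (grey line). Each imprinted gene is placed at the ratio of its most CpG-rich start, in the upper row if any start was bound, otherwise in the lower. Grb10 and Igf2 are in the upper row through a peak at a CpG-poor start. The line climbs from 3.37% to 93.8%, and Mcts2, Phlda2, Rasgrf1, Kcnq1 and Mkrn3 stand in the lower row at CpG ratios above 0.7, where the line is at 84.9% or more.

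Scores at the bound promoters of the 41 genes were mostly below those of other bound promoters, which was not so for the further imprinted genes described at the end. The highest promoter score of the 25 bound protein-coding members had a median of 178 (quartiles 108 and 315), against 313 (quartiles 154 and 565) for 12542 bound protein-coding genes. Of the 25, 18 lay under 313, and 18 lay under the median of their own CpG class. With peaks of at least the median score, 20 of 41 members remained promoter-bound, against 24.7% of all genes, and 18 of the 35 protein-coding ones, against 48.4%. Within the highest-scoring 10% of peaks, with scores of at least 391, the count was 5 of 41 against 11.4% of all genes, and 5 of the 35 protein-coding ones, or 14.3% (6.26 to 29.4%), against 23.1% of protein-coding genes. Those 5 are Gnas, Zim1, Ube3a, Peg10 and Sgce.

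**Figure D2:**
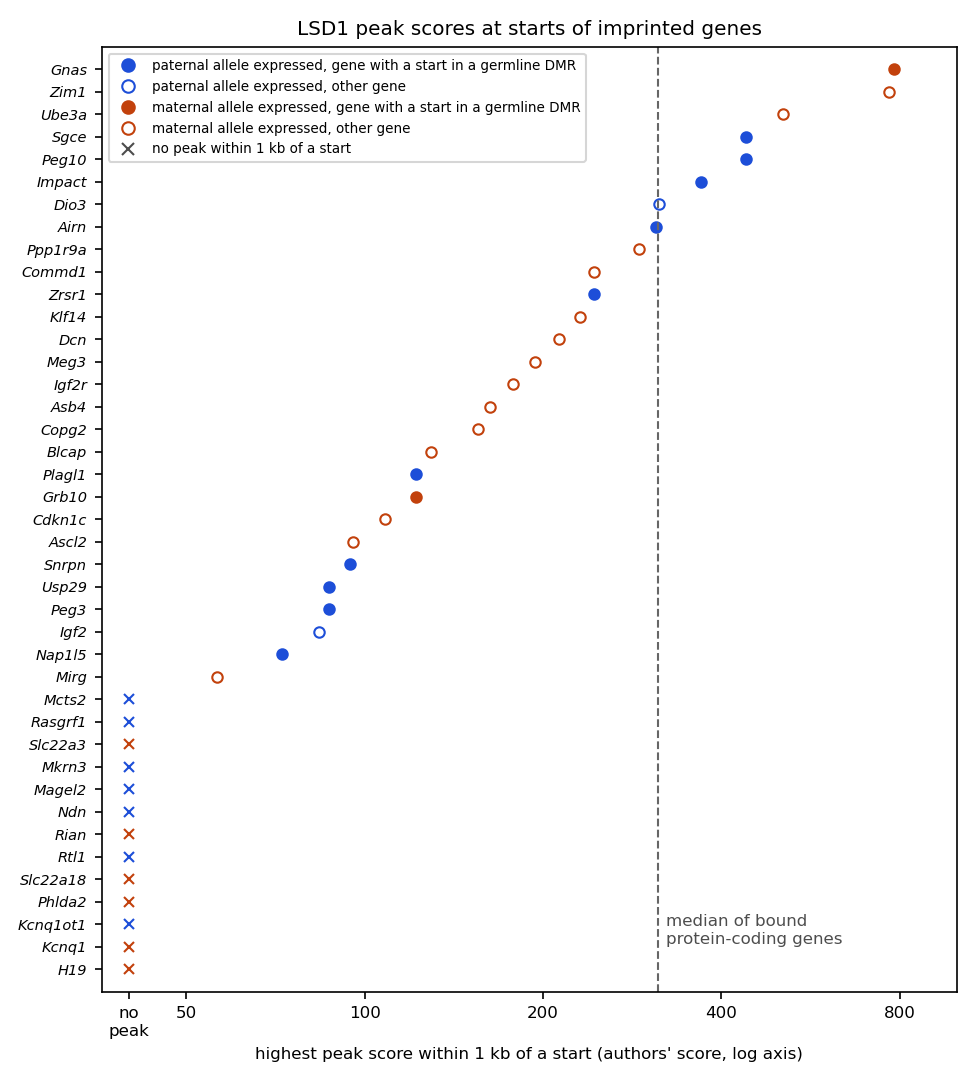
Highest LSD1 peak score within 1 kb of a start for each of the 41 imprinted genes (log axis, authors' score), coloured by the allele known to be expressed and filled for genes with a start in a germline DMR; crosses mark genes without such a peak. Scores run from 56.2 at Mirg to 783 at Gnas, and most lie left of the dashed line at 313, the median of bound protein-coding genes.

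Genes with a start in a germline DMR nearly all had a peak at some start, though fewer did under stricter rules. This list held 14 members, Kcnq1ot1, Airn, Peg3, Usp29, Peg10, Sgce, Grb10, Plagl1, Snrpn, Impact, Zrsr1, Mcts2, Nap1l5 and Gnas, and 4 further imprinted genes, Mest, Inpp5f, Peg13 and Nespas. Of the 18, 16 had a promoter peak, 88.9% (67.2 to 96.9%), against 76.0% over genes of the same type and CpG class. The exceptions were Kcnq1ot1 and Mcts2. Grb10 was counted through a peak at a start near its 3' end, and its CpG-rich starts had no peak within 1 kb. With only the start of each gene record, 11 of the 18 had a promoter peak, against 28.4% of all and 52.3% of protein-coding genes. With peaks of at least the median score 11 of the 18 remained, against 24.7% of all and 48.4% of protein-coding genes. The 27 members outside the list had 16 promoter-bound genes, 59.3% (40.7 to 75.5%), against 67.1% in their classes. The intervals overlap, the genes of a domain share peaks, and a peak at any start was counted, also at a start outside the DMR.

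The Gnas locus carried the highest score of the 41 genes and, among the 10 domains measured, the most peaks per Mb. Gnas (chromosome 2, 174284320-174346744, plus strand) encodes the stimulatory G protein alpha subunit that couples beta-adrenergic receptors to cyclic AMP, and from its upstream starts come Nesp, the maternal neuroendocrine secretory protein, and the paternal extra-large XLas. Its 11 peaks fell within 82.4 kb, 133 peaks per Mb against 22.4 per Mb over the assembled genome. It is the only 1 of these domains with a single member, and the others are mostly longer stretches. From 10 kb upstream to the gene end, Gnas had 15.2 peaks per 100 kb. Blcap (20.1), Dio3 (16.6), Ascl2 (16.1) and Cdkn1c (15.7) had more. The Nesp starts at 174284320 to 174285358 had no peak within 1 kb. The XLas start at 174297859 lay in the peak at 174296422-174297904, 1483 bp wide, with a score of 783, and a second promoter peak there at 174298245-174298837 scored 77.1. The wide peak also came within 1 kb of the start of Nespas, the antisense RNA of the paternal allele. The 5' end of Nespas itself, at 174295436, lay in a lower peak at 174295337-174296161 that scored 141. Another peak within 1 kb of a Nespas start scored 159. The starts at 174327570 to 174328023, at the place known as exon 1A, a second germline DMR of the locus, lay within the peak at 174327273-174328308 with a score of 299. The main Gs alpha starts at 174330006 to 174330287 had a peak at 174330238-174330876 that scored 101. Of the 16 annotated starts 11 were thus occupied, the highest scores being at XLas and exon 1A rather than at the main Gs alpha start.

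Igf2r and the RNA that silences it shared a string of peaks. Igf2r (chromosome 17, 12682406-12769664, minus strand) encodes the receptor that clears insulin-like growth factor 2, and Airn (12741311-12860136, plus strand) is a long noncoding RNA that starts in an Igf2r intron and silences Igf2r and Slc22a3 on the paternal chromosome. Igf2r had 12 peaks and Airn 15, and 9 belonged to both. The strongest of all was over 5 of the 6 Airn starts, at 12741029-12741773 with a score of 310, followed by 12741922-12742638 with 123. The main Igf2r start had a peak at 12769587-12770373 that scored 178, and an internal start had peaks of 137 and 76.6. Beyond the Igf2r promoter the Airn body held peaks of 299, 215 and 213 with midpoints 40511, 51604 and 53085 bp from its 5' end. Slc22a3, a placentally imprinted transporter of organic cations, had no promoter peak and 1 intronic peak that scored 152.

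**Figure D3:**
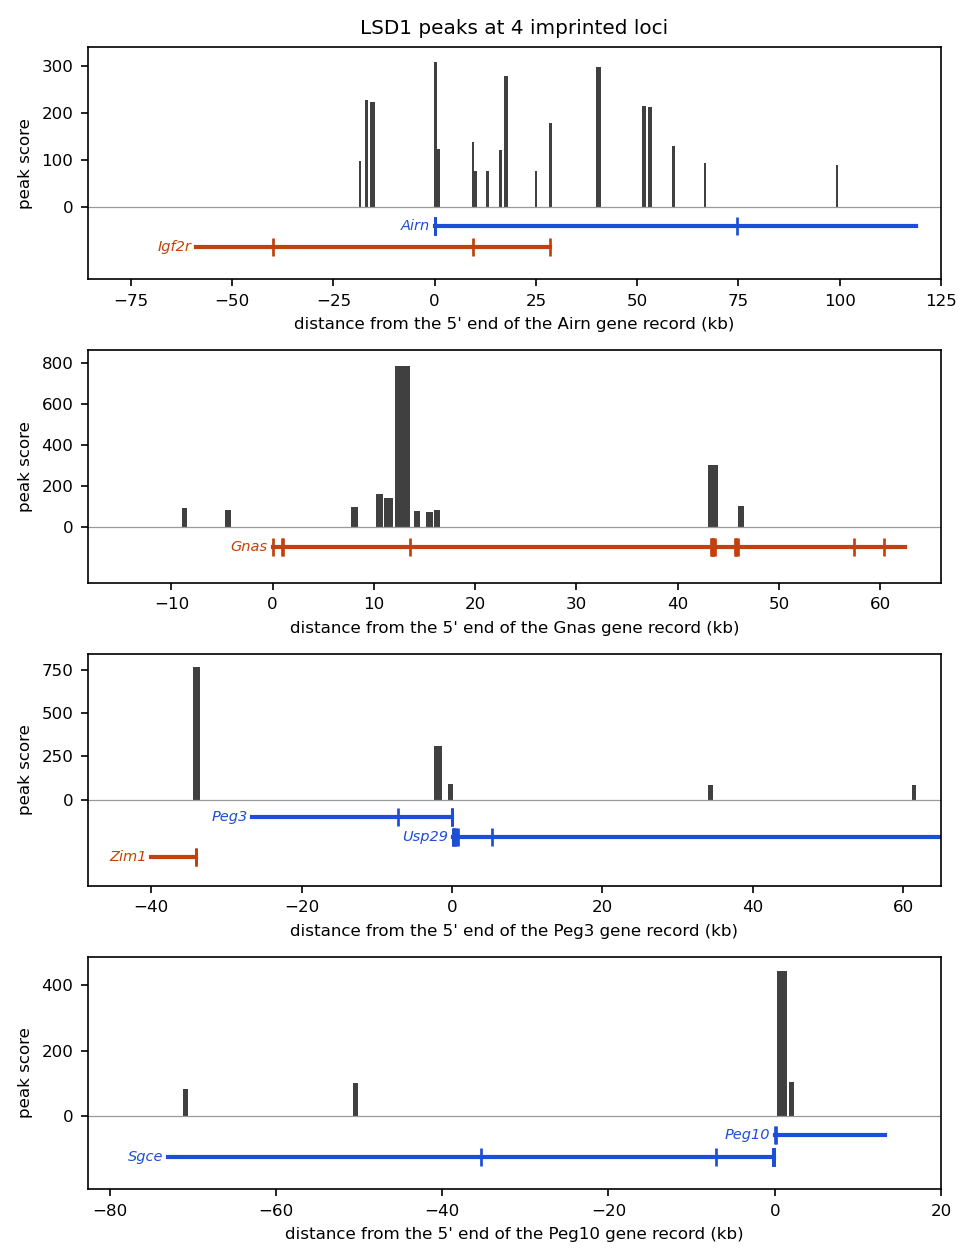
LSD1 peaks (bars, height the authors' score, width to scale with a minimum for visibility) along 4 imprinted loci, plotted by distance in kb from the 5' end of Airn, Gnas, Peg3 and Peg10, with gene bodies as lines (blue paternally, orange maternally expressed) and annotated starts as ticks. Airn, the XLas start inside Gnas and Peg10 each have the tallest peak of their panel over or within 1 kb of a start, and in the Peg3 panel the tallest bar is at Zim1.

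In the Peg3 domain the highest score was at a neighbour of the control region. Zim1 (chromosome 7, 6671269-6696450, minus strand), a maternally expressed zinc finger gene, had a peak over its start at 6696017-6696931 with a score of 768, above 86.9% of bound genes. Peg3, a paternally expressed zinc finger gene, and Usp29, encoding a ubiquitin protease, are transcribed away from each other and shared the promoter peak at 6729934-6730568, which scored 87.1. A stronger peak of both, at 6727993-6729033 with a score of 311, had its midpoint in a Peg3 intron, 1906 bp downstream of a Peg3 start. No part of it came within 1 kb of a start, so it was outside the promoter rule. That peak is shown above and holds 2 AAGATGGC, the core letters of the YY1 site known from the Peg3 DMR. On either strand, 16 of the 59175 peaks, 0.0270%, had 2 or more of these letters in the same window, and this was the only one of the 97 imprinted peaks that did. Usp29 had 3 further intronic peaks, with scores from 84.8 to 94.8.

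Peg10 and Sgce, arranged head to head on chromosome 6, shared 1 strong peak. Peg10 (4747306-4760517, plus strand) derives from a retrotransposon and is needed for the placenta, and Sgce (4674350-4747207, minus strand) encodes epsilon-sarcoglycan. Their common peak at 4747588-4748730 was 1143 bp wide and scored 441, and it lay on the Peg10 side, 182 bp from a Peg10 start and 381 bp from an Sgce start. Its 300 bp window had a CpG ratio of 1.43, against a median of 0.618 over 18390 promoter peaks. The window is repetitive, and the 12 letters cgcttcatgcgc occur 6 times in it. The part of repeated sequence in the score was not tested. In the same domain Ppp1r9a, encoding the actin-binding neurabin, had a peak over its main start at 4902563-4903409 that scored 290. Asb4, encoding a subunit of ubiquitin ligases, had one at 5383919-5384641 with a score of 163.

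The Kcnq1 domain on chromosome 7 held 28 peaks, 50.3 per Mb, and few of them were at the starts of its 6 imprinted genes, of which 2 were promoter-bound. Kcnq1ot1, the noncoding RNA that silences the domain on the paternal chromosome and starts in a germline DMR, had no peak within 1 kb, and the nearest one lay 13905 bp away. Kcnq1 (143106362-143427042, plus strand), a potassium channel gene, had 11 intronic peaks of 74.3 to 114 and none at its 7 starts. Phlda2, a growth-restraining gene of the placenta, and Slc22a18, a membrane transporter gene, had neither kind of peak. Cdkn1c, encoding the cell cycle inhibitor p57, had peaks of 108 and 101 over its starts, and Ascl2, a transcription factor gene of the trophoblast, had one of 95.7. Between Ascl2 and Kcnq1 the same domain held stronger peaks, up to 396 at Tssc4.

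H19 and Igf2 had 1 promoter peak between them. H19 (142575529-142578143, minus strand), a maternally expressed noncoding RNA, had no peak in its body or in the 50 kb upstream, a stretch that takes in the sequence upstream of H19 where its CTCF-bound control region is known to lie. The nearest peak to a start was 28698 bp away. Igf2 (142650766-142666816, minus strand), encoding a fetal growth factor, had a single peak at 142666281-142666928, with a score of 83.7, over 1 of 9 starts. The CpG ratio at that start was 0.0606, and its CpG-rich starts, with ratios up to 0.822, had no peak.

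Peaks were sparse in the Snrpn to Ube3a region. A stretch of 3211 kb on chromosome 7 with 5 imprinted genes held 3 peaks, 0.934 per Mb, against 27.1 per Mb on the whole chromosome. Ndn, Magel2 and Mkrn3, paternally expressed genes without introns that lie side by side, had no peak, and the nearest one to any of them was the promoter peak of Peg12 with a score of 75.5, 44020 bp from Mkrn3. Snrpn, a gene of RNA splicing whose promoter is the control region of the domain, had a peak at 60004418-60005238 with a score of 94.5 at 1 of its 2 starts, and none at the other. Ube3a, a ubiquitin ligase gene imprinted in neurons, had a peak at 59228256-59229098 that scored 508. Whether reads could be placed across the repeated noncoding RNA clusters of this region was not tested.

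The stretch from Meg3 to Dio3 in the Dlk1 to Dio3 domain of chromosome 12 held 28 peaks, 36.8 per Mb, most of them between genes of the list, with a score of up to 254 away from any annotated start. Dlk1 itself, outside that stretch, had no promoter or nearby peak. Meg3, a maternally expressed noncoding RNA, had a peak over its start at 109540636-109541415 with a score of 194, and no peak in the 50 kb upstream, where the germline control region of the domain is known to lie. Dio3, whose enzyme inactivates thyroid hormone, had a peak over its start at 110278344-110279556 that scored 315. Rtl1, a retrotransposon-derived placental gene, and Rian, a host of small RNAs, had no promoter peak but shared one at 109595742-109596596 with a score of 302, which lies within 1 kb of the microRNA genes Mir136, Mir3071 and Mir432. Mirg, a microRNA host, had the lowest promoter score of the imprinted genes, 56.2, beside an internal start.

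Smaller imprinted loci showed the range of patterns. Zrsr1, a splicing factor gene made by retrotransposition, lies within Commd1, a gene of copper and NF-kappa-B control, and the peak over its start at 22972687-22973716 on chromosome 11 scored 244. The Commd1 main start had its own peak, with a score of 111. Nap1l5, a similar retrogene inside Herc3, had a peak of 72.5 over its start, while Mcts2, inside H13, had none within 4444 bp. Impact, a translational regulator gene on chromosome 18, had no peak at its most upstream starts and peaks of 370 and 218 at internal ones. Plagl1, a zinc finger gene of growth control on chromosome 10, had a peak of 122 over 8 starts in its interior and one of 79.7 at the upstream start.

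Grb10, encoding an adaptor that restrains insulin signalling, had 5 peaks on chromosome 11, with scores from 97.4 to 217. None lay within 1 kb of its CpG-rich starts at 12026324, 12026732 and 12037401, and the one counted as a promoter peak, with a score of 122, belonged to a start near the 3' end with a CpG ratio of 0.129. Rasgrf1, a Ras activator gene, had a coding-exon peak of 94.8 whose edge lay 1343 bp from a start, and so was not promoter-bound. Klf14, an intronless transcription factor gene tied to metabolic traits in humans, had a peak of 231 in its coding exon. Copg2, a coat protein gene, had one of 156 over all 8 of its starts. Blcap, whose RNA is edited in brain, had 4 promoter peaks of 98.5 to 129, the highest shared with Nnat, and Dcn, a matrix proteoglycan gene, had peaks of 213 and 144. With 2 or more promoter peaks there were 9 of 35 protein-coding members, against 17.1% of protein-coding genes.

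Split by the parental allele known to be expressed, the promoter-bound shares had wide, overlapping intervals. Of the 19 paternally expressed members 12 were promoter-bound, 63.2% (41.0 to 80.9%), and of the 22 maternally expressed ones 16, or 72.7% (51.8 to 86.8%). The shares in the same gene types and CpG classes were 71.1% and 70.4%. With peaks of at least the median score the counts were 7 of 19, 36.8% (19.1 to 59.0%), and 13 of 22, 59.1% (38.7 to 76.7%). The difference was not tested, and some maternally expressed genes are imprinted only in brain or placenta, such as Ube3a, Commd1, Ascl2 and Slc22a3. Gnas is counted as maternal, although its peaks above the median score lie at or near the paternal XLas and exon 1A starts, its main Gs alpha peak is below the median and its Nesp starts had none. Commd1 and Blcap, also counted as maternal, reached the median score only through shared peaks. For Commd1 it was the peak of the paternally expressed Zrsr1 (244), and for Blcap the one shared with Nnat (129). Their other promoter peaks scored 98.5 to 110.5, under the median of 111.28.

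At the sequence level the letters known for ZFP57 were frequent in peaks at germline DMR genes. TGCCGC, searched on both strands in the 300 bp around each midpoint, was in 12 of 22 promoter peaks of these genes, 54.5% (34.7 to 73.1%). Of the 22 peaks, 16 belong to members and 6 to Mest, Inpp5f, Peg13 and Nespas. Some come from the same locus, such as Gnas with Nespas, and the difference from other peaks was not tested. It was in 4 of 24 promoter peaks of the other members, 16.7% (6.68 to 35.9%), in 17.7% of 18390 promoter peaks of all genes and in 8.13% of all peaks. Promoter peaks in the same CpG classes as the 22 held it in 20.3% of cases. The Nap1l5 peak had 5 matches, and the peak at the Mest promoter, outside the members, had 4. Snrpn and the lower-scoring Airn peak had 3 each, and the shared Peg3 and Usp29 peak had 2. The strongest of the 22 peaks, at XLas (783), Inpp5f (721) and Peg10 (441), had none in their windows. The Inpp5f peak of 721 lay over the 5' end of the gene, and its other promoter peak, at an internal start with a score of 338, had 1 match. The 22 include peaks at any start of these genes, also at starts outside the DMR, such as the Grb10 start near its 3' end. These genes were listed for a germline DMR, the kind of region where ZFP57 is known to act. DMR sequence without a peak was not searched, so whether the letters go with LSD1 peaks within DMRs was not tested. A match describes the letters and says nothing about ZFP57 in these cells.

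**Figure D4:**
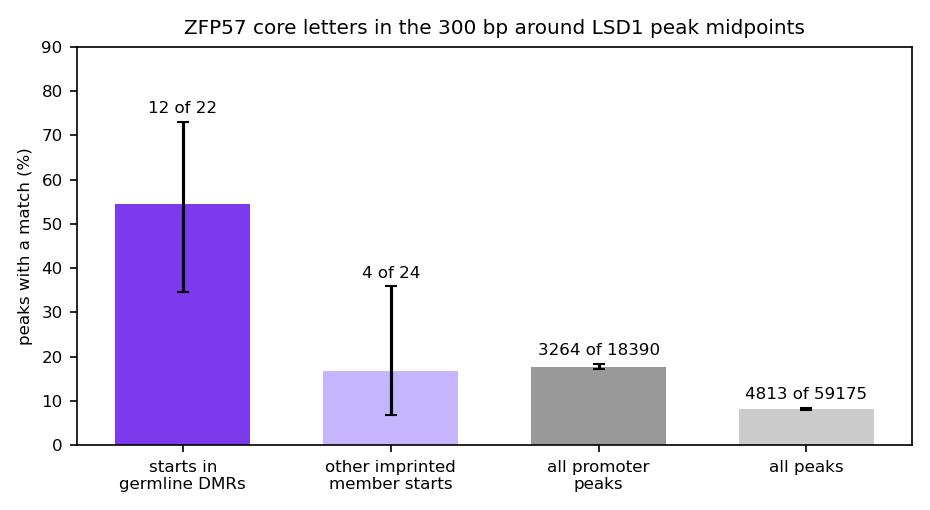
Percent of LSD1 peaks whose central 300 bp hold TGCCGC or its reverse complement, with Wilson 95% intervals for counting error, for 22 promoter peaks of genes with a start in a germline DMR, 24 promoter peaks of the other imprinted members, all promoter peaks and all peaks. The value for the germline DMR genes is 54.5% (34.7 to 73.1%), beside 17.7% of all promoter peaks and 20.3% of those in the same CpG classes. The bar labelled starts in germline DMRs includes peaks at any start of these genes, also outside the DMR. Some of the 22 peaks come from the same locus, and the difference was not tested.

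Other letters were rare or near the background. CGCGNGGNG, the core of the CTCF sites of the H19 control region, was in 4 of 40 imprinted promoter peaks, those at Igf2r, Cdkn1c, Gnas and Copg2, against 12.1% of all promoter peaks. AAGATGGC was in 1 of 40, at Ube3a, against 2.64%, and GCATGCGC, a core of the NRF1 site, in 1 of 40, at Igf2r, against 2.69%. These motifs were searched on both strands as exact letters. The 40 promoter peaks had a median width of 688 bp and a median GC content of 58.5%, against 830 bp and 58.3% over all promoter peaks. Peaks of the imprinted genes away from their starts, 57 in number, had a median score of 98.2 and were intronic in 43 cases.

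Other imprinted genes and the genes that act on imprints were occupied about as often as genes of their CpG classes. Of 30 other mouse imprinted genes 19 were promoter-bound, 63.3% (45.5 to 78.1%), against 63.6% in their types and CpG classes. The highest promoter score of the 19 bound genes had a median of 372, above the 178 of bound protein-coding members and the 313 of bound protein-coding genes. Of the 30, 9 had a peak in the highest-scoring 10%, 30.0% (16.7 to 47.9%), against 11.4% of all and 23.1% of protein-coding genes. The highest scores were at Nespas (783, the peak shared with Gnas), at Herc3, the host of Nap1l5 (771), and at Inpp5f, a phosphoinositide phosphatase gene (721). The Nespas value is that of the peak over the XLas start, and the peak over the 5' end of Nespas scored 141. Dlk1, an inhibitor of adipogenesis, and Zdbf2 had no promoter peak. Of 22 genes that set, keep or read imprints 19 were bound, 86.4% (66.7 to 95.3%), against 83.0% in their classes. They were led by Arid4a (1580) and Arid4b (819), chromatin proteins needed for the Snrpn imprint in mice, and Ehmt1, a histone methyltransferase gene (1187). Zfp445, a partner of ZFP57 in imprint maintenance, and Setdb1, a histone methyltransferase gene, had none.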

How the data were processed

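LSD1-bound DNA and input DNA were sequenced. The submitters' processing notes name Bowtie2, MACS 1.41 and the mm10 build. How reads were filtered, which peak threshold applied and how the input entered were not given in the sources used. The authors deposited 1 list of peaks with a score per peak, used here only within that list. It gives no counts, and the depth is unknown.

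Starts and gene bodies came from GENCODE M21 on GRCm38, the assembly behind mm10, and 0 peaks reached past a chromosome end. Overlap of at least 1 bp counted, and positions count from 1. CpG ratios, GC content and exact letters were read from GRCm38.p6 with Python 3.11.15, numpy 2.4.6 and scipy 1.17.1. The overlap search was tested on simulated data against a direct search. The input library was not analysed here. Every gene of the list is named, and of the 2 accompanying lists the 3 highest promoter scores and the first 2 genes without a promoter peak. The genes and lists, and the parental allele and DMR assignments taken from general knowledge, were chosen with earlier results of these data known.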

Additional observations from a re-analysis of the deposited data

How the results depend on the processing

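With promoters of 500 bp, promoters of 2.5 kb, midpoints inside the promoter or 1 start per gene, the promoter counts of the imprinted genes (22 to 29) and of the other lists moved by less than 1.5 times. Score limits moved them. With peaks of at least the median score 7 paternally expressed members were bound. In the highest-scoring 10% of peaks, 11.4% of all and 23.1% of protein-coding genes were promoter-bound. There the counts were 5 of 41 members, 5 of 18 genes with a germline DMR start (27.8%) and 9 of 30 other imprinted genes. They were 9 of 22 for imprint regulators (40.9%), 2 of 19 for paternally (10.5%) and 3 of 22 for maternally expressed members (13.6%). A nearby peak remained for 5 members. The median highest score of bound members was 508, which follows from leaving out lower peaks. The excess over all genes was 37.7 percentage points for promoter peaks and 39.4 for nearby peaks. It was 14.3 and 15.8 among protein-coding genes, and 0.826 and -2.76 in the highest-scoring 10%. Against the same gene type and CpG class the promoter value was -2.44. Counting genes that share a promoter peak once left 25 of 38 bound. TGCCGC was in 14 of 40 promoter peaks of members in 300 bp and in 200 bp, against 17.7% and 12.5% of all promoter peaks. Over whole peaks it was in 20 of 40, against 37.9%. The 22 promoter peaks of germline DMR genes were described in the 300 bp window only. No paired analysis was possible because each kind of library is present once and the result comes from no test.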
